A study of Mus musculus with 10 samples.

Results

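The nuclei described here are cortical nuclei of the mouse that carried transcripts of Scube1, Scn7a, Pamr1, BC006965, Dkkl1, Herc6 or Deptor and none of several genes of inhibitory neurons and of other excitatory types. A nucleus was a member when it held at least 2 UMIs (unique molecular identifiers, 1 per captured transcript) from at least 2 of these 7 genes, no UMI of Gad1 or Gad2, which make GABA, and no UMI of Syt6, Rprm, Foxp2, Fezf2 or Otof. These thresholds left 465 members of 5966 cortical nuclei and of 11624 nuclei in all. The 14 genes of the rule are called gate genes, and their levels in the members follow from the rule. The 5501 other cortical nuclei are the main group of comparison. The study profiled frozen, archived hippocampus and cortex (dissected as prefrontal cortex, per the protocol) of C57BL/6 mice by DroNc-seq, in which single nuclei and barcoded beads share droplets. Its design names 4 mouse brains, and no genotype, treatment, age or sex is given. The cortical libraries fall into 4 units by the number in their titles, with libraries a and b of unit 0 summed. The labels do not say which unit is which animal, so every p-value rests on the variation among units, and this may be technical in origin.

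Excitatory neurons of the cortex release glutamate and are arranged in layers that differ in their targets. Upper-layer neurons project within the cortex and are known for Cux2, a homeobox transcription factor. Rorb, a nuclear receptor, marks layer 4 and the neighbouring upper part of layer 5. Layer 5 holds intratelencephalic neurons, which project to cortex and striatum and are known for Etv1, an ETS transcription factor, and subcerebral neurons, which project to brainstem and spinal cord and are known for Bcl11b and Fezf2. Layer 6 corticothalamic neurons are known for Foxp2, Syt6, Rprm and Tle4. The prefrontal cortex of the mouse lacks a distinct granular layer 4.

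The cortical libraries held between 623 and 1626 nuclei and between 1807068 and 2600788 UMIs. Members were deeper than other nuclei in every unit, with a median of 1871 UMIs in members and 1297 in other cortical nuclei. In unit 0, the deepest, the medians were 3431 UMIs in members and 2362 in the others. Pairs of the cortical libraries shared at most 3 cell barcodes, and no member's barcode occurred in a second library. An own doublet score marked 53 members (11.4%) and 363 of the other nuclei (6.60%).

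Most members were chosen by Pamr1 and Scube1. Pamr1, a secreted peptidase-like protein, had a UMI in 308 members. Scube1, a secreted and cell-surface glycoprotein, had one in 282. Herc6, an interferon-inducible ubiquitin ligase, was found in 194 members, Deptor, an inhibitor of mTOR signalling, in 95, and Scn7a, the sodium-sensing channel protein Nax, in 80. Dkkl1, a secreted Dickkopf-like protein, was found in 77 members and the noncoding transcript BC006965 in 60. The commonest pair was Scube1 with Pamr1, in 167 members. The rule needed little evidence per nucleus: 184 members (39.6%) held exactly 2 UMIs of the 7 genes, 137 held 3 and 144 held 4 or more. Of 764 nuclei that passed the positive part of the rule, 134 were removed for Gad1 or Gad2 and a further 165 for Syt6, Rprm, Foxp2, Fezf2 or Otof.

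The 7 genes lie on several chromosomes in the mm10 assembly, so they are not 1 neighbourhood of the genome. Scube1 (15:83604999-83725021) and Deptor (15:55112317-55259271) share chromosome 15, and Pamr1 (2:102550012-102643041) and Scn7a (2:66673425-66784914) share chromosome 2. Herc6 lies at 6:57581000-57664632, Dkkl1 at 7:45207519-45212147 and BC006965 at 11:112663927-112781976.

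The levels of each of the 7 genes were also taken with that gene left out of the rule. Nuclei were then chosen with the other 6 genes, and the gene left out was read in them and in all remaining cortical nuclei. The 7 genes had been put together with earlier results of these data known, so these levels are a description, with no test, and support nothing about the nuclei. Each of the 7 genes had a higher level in the chosen nuclei in 4 of 4 units. Scn7a, in TMM-scaled CPM (counts scaled to a common library total), had 25.6, 72.9, 43.2 and 89.3 in the chosen nuclei of units 0 to 3, against 8.55, 19.6, 19.5 and 15.1 in the others. Its log2 fold change was 1.84 ± 0.31 (SE, edgeR), and no unit overlapped the other group. Pamr1 averaged 264 CPM in the chosen nuclei and 113 in the others, a log2 fold change of 1.16 ± 0.17. Scube1 averaged 224 and 110.1 CPM, chosen nuclei first, a log2 fold change of 1.03 ± 0.15. The log2 fold changes of BC006965, Deptor, Herc6 and Dkkl1 were 1.49, 0.94, 0.74 and 0.96.

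**Figure D1:**
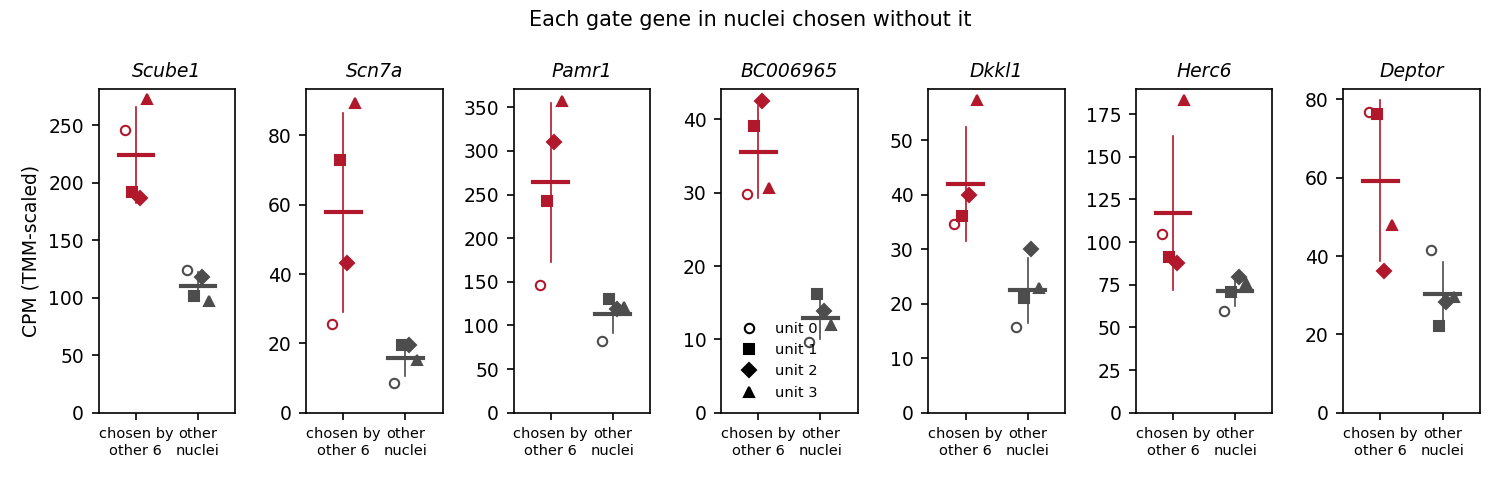
CPM (TMM-scaled, y axis from 0) of each of the 7 positive gate genes per unit, in nuclei chosen by the other 6 genes (left, red) and in all other cortical nuclei (right, grey). Symbols are units, horizontal bars the mean and vertical lines 1 SD of 4 units. The chosen nuclei lie above the others in the same unit for each gene, and the Scn7a ranges do not overlap.

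Members made up 7.86% ± 2.02 of a unit's nuclei (SD, n = 4 units). Unit 0 had 149 members of 1370 nuclei (10.9%, exact 95% interval 9.28 to 12.6), unit 1 had 117 of 1626 (7.20%), unit 2 had 91 of 1379 (6.60%) and unit 3 had 108 of 1591 (6.79%). The share was highest in the deepest unit. When each nucleus was thinned to 800 UMIs, 191 of 5423 nuclei passed, the share was 3.51% ± 0.908, and unit 0 was the lowest at 2.66%, against 4.78%, 3.14% and 3.48% in units 1 to 3. The intervals cover counting error only.

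Few hippocampal nuclei passed the same thresholds. They numbered 80 of 5658, or 1.05% ± 1.08 per unit (SD, n = 4 units). Of these, 62 came from unit 0 (2.61% of its 2374 nuclei), and the other 3 units gave 3, 4 and 11. After thinning, 23 of 3467 hippocampal nuclei remained. The thinned share was higher in cortex than in hippocampus in each unit, with 2.66% of cortical and 1.35% of hippocampal nuclei in unit 0, where the gap was smallest. The rule was set on cortex, so this is a description.

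The members carried genes of excitatory neurons. At least 2 of 10 pan-excitatory markers were found in 430 members (92.5%), against 78.1% of the other cortical nuclei, at a median of 1871 UMIs in members and 1297 in the others. Thinned to 800 UMIs, Slc17a7 was found in 19.6% ± 3.202 of members and 17.8% ± 1.06 of the others (SD, n = 4 units), and its pooled level was 261 CPM in members and 243 in the others. Levels were compared by edgeR's quasi-likelihood test on UMI sums per unit, with Benjamini-Hochberg adjustment over all genes tested and a threshold of 0.05. By this test 3 of the 10 markers were higher in members, Neurod6, Nrn1 and Slc30a3, and none was lower. A UMI of at least 1 of 3 excitatory marker genes, among them Slc17a7, the vesicular glutamate transporter, and Neurod6, a transcription factor of excitatory neurons, was found in 277 members. Levels are given from here on as plain CPM, the UMIs of a gene relative to all UMIs of the group in that unit. Slc30a3, the zinc transporter of glutamatergic synaptic vesicles, had 302, 272, 214 and 249.9 CPM in the members of units 0 to 3, against 210.3, 149, 165 and 164 in the other nuclei. The ranges did not overlap, and the log2 fold change was 0.62 ± 0.12 (edgeR, adjusted p = 4.40e-04), a call that was lost without unit 0. Slc30a3 also passed, higher in members, against the Fezf2 and layer 6 groups described below, but not against the Otof group. The rule excluded such nuclei from the members only, and the part of this was not tested. Against other excitatory nuclei, also described below, none of 7 pan-excitatory genes tested passed. At least 2 of 14 inhibitory markers were found in 45 members (9.68%) and in 17.7% of the others, and nuclei with Gad1 or Gad2 had been excluded from the members.

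Genes of other cell types were present too. At least 2 of 11 astrocyte markers were found in 158 members (34.0%) and in 27.4% of the others. At least 2 oligodendrocyte markers were found in 56 members (12.04%) and in 10.9% of the others, and at least 2 endothelial markers in 21 members (4.52%) and in 4.76% of the others. The 8 endothelial markers together had 1102, 344, 1827 and 96.1 CPM in the members of units 0 to 3, a wide range, against 745 to 1513 in the others. The 9 markers of meningeal fibroblasts and mural cells had 76.9 to 1312 CPM in members and 401 to 659 in the others, with Bnc2 at 0 in members. Counting a kind as present at 2 or more of its markers, 11 members carried a non-neuronal kind alone, 185 carried a non-neuronal and the excitatory kind, 245 the excitatory kind alone and 24 neither. The part of the non-neuronal transcripts in the results below was not tested beyond the alternatives given. When cortical nuclei were clustered, 75 members (16.1%) and 953 other nuclei (17.3%) fell in clusters whose summed level of a non-neuronal marker list was at least 3 times that of the whole cortex, a limit set after seeing the data. These clusters were led by astrocyte, oligodendrocyte, precursor, endothelial or meningeal genes.

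Rorb and Etv1 were higher in members than in the other cortical nuclei, Bcl11b was lower, and Cux2 missed the threshold. Rorb had 102, 92.4, 148 and 154 CPM in the members of units 0 to 3, against 62.5, 66.0, 61.2 and 72.7 in the other nuclei. Every unit of the members lay above every unit of the others, and the log2 fold change was 0.91 ± 0.17 (edgeR, adjusted p = 2.92e-04). Etv1 had 73.4, 92.4, 66.4 and 125 CPM in members, against 31.9, 46.8, 46.6 and 43.0 in the others. The ranges again did not overlap, and the log2 fold change was 1.14 ± 0.20 (adjusted p = 1.31e-04 by edgeR).

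Bcl11b went the other way. It had 17.1, 25.7, 30.6 and 28.8 CPM in members and 70.4, 77.0, 77.7 and 64.9 in the other nuclei. The log2 fold change was -1.60 ± 0.26 (edgeR, adjusted p = 2.02e-05), with no overlap of units. The rule excluded nuclei with Fezf2, Syt6, Rprm, Foxp2, Otof, Gad1 or Gad2 from the members only. Bcl11b had pooled levels of 154 CPM in the Fezf2 group and 149 in the layer 6 group, described below. With the same exclusions and an excitatory marker on both sides, Bcl11b missed the threshold (-0.99 ± 0.32, edgeR, adjusted p = 0.586). The part of the exclusions in the difference was not tested separately. Cux2 had 133, 92.4, 143 and 52.9 CPM in members and 147, 136, 154 and 141 in the others. It was lower in 4 of 4 units but overlapped, and the log2 fold change of -0.36 ± 0.16 missed the threshold (edgeR, adjusted p = 0.401). Without unit 0 the call was lost for Etv1 (adjusted p = 0.0592) and for Bcl11b (adjusted p = 0.0542), at log2 fold changes of 1.07 and -1.34. The call for Etv1 was also lost without the block for units (edgeR, adjusted p = 0.0624). Without the clusters led by non-neuronal markers all 3 calls held, with log2 fold changes of 1.11 for Rorb, 1.20 for Etv1 and -2.54 for Bcl11b.

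Shares of nuclei with a UMI showed how thin this evidence is per nucleus. Rorb was found in 102 members (21.9%) and in 9.36% of the other nuclei, and Etv1 in 62 members (13.3%) and in 6.29% of the others. Cux2 was found in 88 members (18.9%) and in 19.5% of the others, and Bcl11b in 23 members (4.95%) and in 10.2% of the others. Droplets also hold free RNA, so the shares were set beside 813 glial and vascular nuclei without excitatory or GABA markers, whose median was 1468 UMIs against 1871 in members. These held Rorb in 12.4%, Etv1 in 7.63%, Cux2 in 16.5% and Bcl11b in 7.50% of nuclei. The glial group is no clean blank for Rorb, since the cluster led by Gfap, Myoc and Aqp4 had 222 CPM of Rorb.

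Thinned to 800 UMIs, Rorb was found in 11.1% ± 4.51 of members, 5.11% ± 0.483 of the other nuclei and 6.75% ± 1.66 of the glial and vascular group (SD, n = 4 units). In unit 1 the groups did not separate, with Rorb in 4.46% of members, 5.36% of the others and 4.32% of the glial group. Cux2 was then found in 7.86% ± 4.15 of members and 9.67% ± 0.940 of the glial group, so its share in members was not above that group's. Bcl11b was found in 0.966% ± 1.40 of members and 4.43% ± 1.12 of the glial group. The glial group is no clean blank for these 2 genes either. Bcl11b was in 1.37% ± 0.930 of the Otof group and Cux2 in 5.28% ± 1.89 of the Fezf2 group, both described below. Etv1 was found in 4.42% ± 1.80 of members, 2.97% ± 0.497 of the others and 3.34% ± 1.52 of the glial group, which overlap, so its excess was not detectable in shares at this depth.

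**Figure D2:**
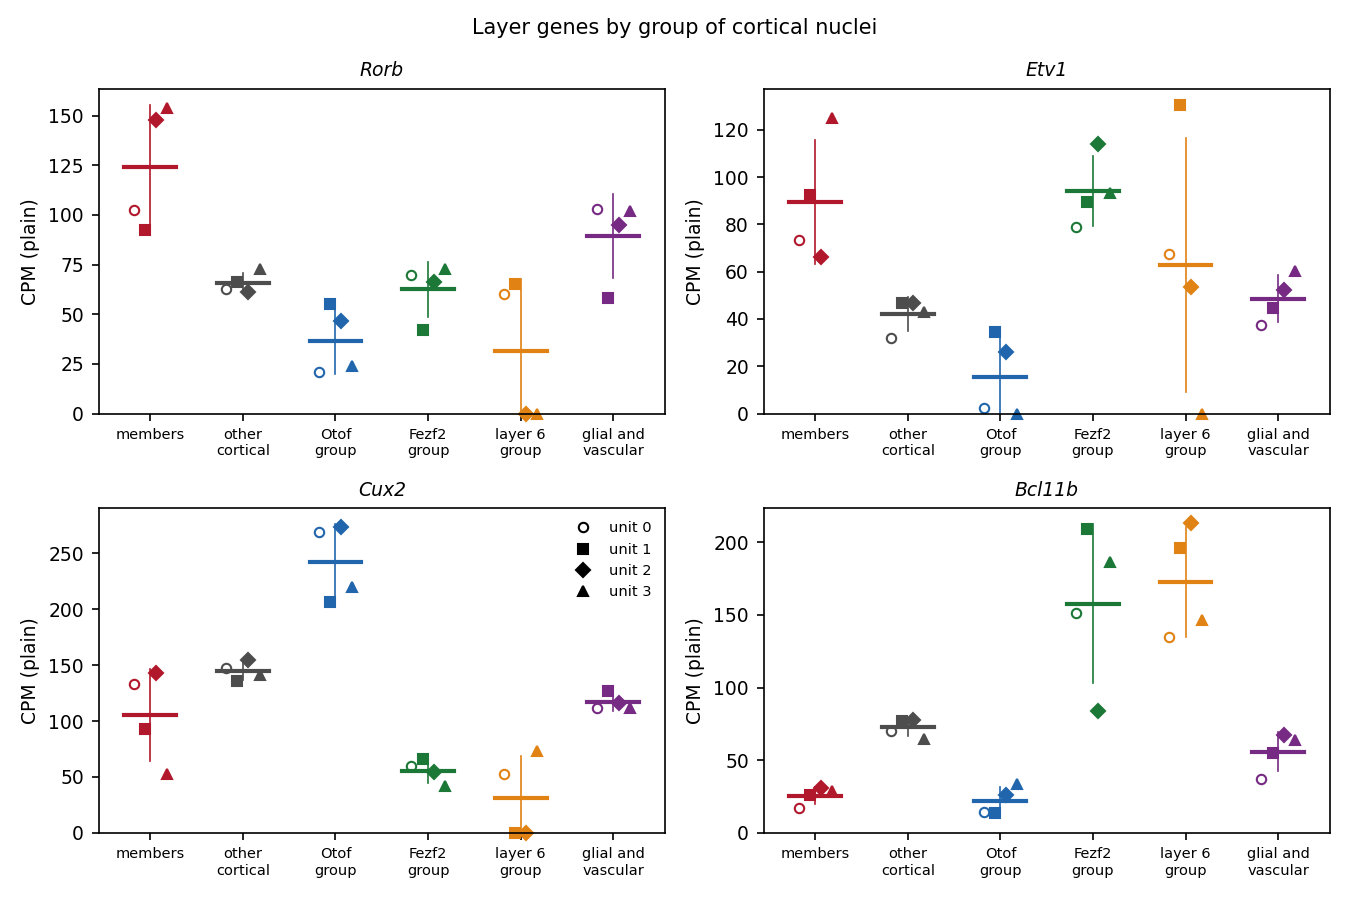
Plain CPM (y axes from 0) of Rorb, Etv1, Cux2 and Bcl11b in members, all other cortical nuclei, the Otof, Fezf2 and layer 6 groups, and glial and vascular nuclei. Symbols are the 4 units, bars the mean and vertical lines 1 SD. Members sit above the other nuclei for Rorb and Etv1 and below them for Bcl11b, and Cux2 overlaps.

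The layer genes were also read within the members, of which 102 held Rorb, 88 Cux2 and 62 Etv1. Rorb and Cux2 shared 21 members, Rorb and Etv1 shared 13, and 244 members held none of the 4 layer genes. These counts were not compared with those of independent detection, so they do not show whether the members are uniform. The 80 members with Scn7a and the 60 with BC006965 had no UMI of Bcl11b. Rorb had 67.5 CPM in members with BC006965 and 125 in members without it, while Etv1 had 141 in members with it and 75.4 in those without. Cux2 was 46.6 CPM in members with Deptor and 139 in those without. In the other direction, Cux2 was 154 CPM in members with Herc6 and 76.8 in those without. Library 3 had the lowest Cux2 of the 5 libraries (52.9) and the highest Etv1 (125), and the opposite end was library 0b, with 148 for Cux2 and 57.1 for Etv1. These values pool members over units and carry no test.

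The layer genes were also read around the threshold of the rule, pooled over units and with no test. Median depth rose from 1110 UMIs in nuclei with no UMI of the 7 genes to 2591 in members with 4 or more. Nuclei that passed the exclusions had 62.8 CPM of Rorb with no UMI of the 7 genes (2327 nuclei), 95.2 with 1 UMI (767 nuclei) and 139 with 2 or more UMIs of a single gene (193 nuclei). Just inside the rule, members with exactly 2 UMIs had 110.03, those with 3 had 141 and those with 4 or more had 108. Etv1 had 32.5, 47.2 and 44.5 CPM in these 3 groups outside the rule, and 81.9, 62.7 and 101 in the 3 groups of members. Bcl11b had 62.8, 42.5 and 62.9 outside and 17.9, 18.8 and 29.5 inside. The nuclei with several UMIs of a single gate gene were thus within the members' range for Rorb and outside it for Etv1 and Bcl11b.

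Cortical nuclei were also clustered with all 14 gate genes left out. Of 17 clusters, cluster 1 held 243 members (52.3%), with 61.1%, 49.6%, 40.7% and 52.8% of the members of units 0 to 3. This cluster held 1028 nuclei, 17.2% of the cortex, with Rmst, Hrh3, Tmem91, Onecut2, Cpne4, Crhr1, Rorb, Kcnk2 and Boc among its leading genes. Members were 23.6% of its nuclei, so the levels of the gate genes in it follow in part from the rule and are a description only. Over all nuclei of the cluster and over the rest of the cortex, Scube1 had 240 against 87.2 CPM, Pamr1 239 against 81.7, Scn7a 44.4 against 10.5, BC006965 38.5 against 7.96, Dkkl1 49.8 against 16.0, Deptor 66.2 against 26.7 and Herc6 112 against 61.8. A further 49 members (10.5%) fell in cluster 0, led by Plk5 and with Cux2 among its leading genes, and 29 in cluster 3, led by Oprk1 and Rxfp1. Cluster 14, led by Tshz2, a gene of near-projecting neurons, held none. It had 441 CPM of Fezf2 against 53.1 in the rest of the cortex, and cluster 0 had 218 of Otof against 35.2. The rule barred nuclei with either gene from the members, so these shares follow in part from the rule. Cluster 14 also had 441 CPM of Pamr1 and 230 of Etv1.

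At a finer resolution the members split mainly over 3 clusters. Cluster 4 held 113 members (24.3%) and 4.76% of the other cortical nuclei. Its leading genes were Efcab3, Lamb1, Hgf, Rmst, Tnnc1, Vill, Cpne4, Scn9a, Hrh3 and Slc26a4. Cluster 2 held 84 members (18.1%) and 6.93% of the others, and was led by Adam33, Medag, Rorb, Kcnh5, Trhde, Whrn, Brinp3, Cdh12, Boc and Tmem145. Cluster 10, led by Tmem91 and Onecut2 and with Etv1 and Tox among its leading genes, held 53 members (11.4%) and 3.799% of the others. Cluster 4 was the Etv1 side, with 137 CPM of Etv1, 96.3 of Rorb and 4.90 of Bcl11b. Cluster 2 was the Rorb side, with 225 CPM of Rorb, 28.2 of Etv1 and 20.5 of Bcl11b. The shares of members differed between units, cluster 4 taking 22.8%, 21.4%, 17.6% and 35.2% and cluster 2 taking 26.8%, 16.2%, 14.3% and 11.1% in units 0 to 3.

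**Figure D3:**
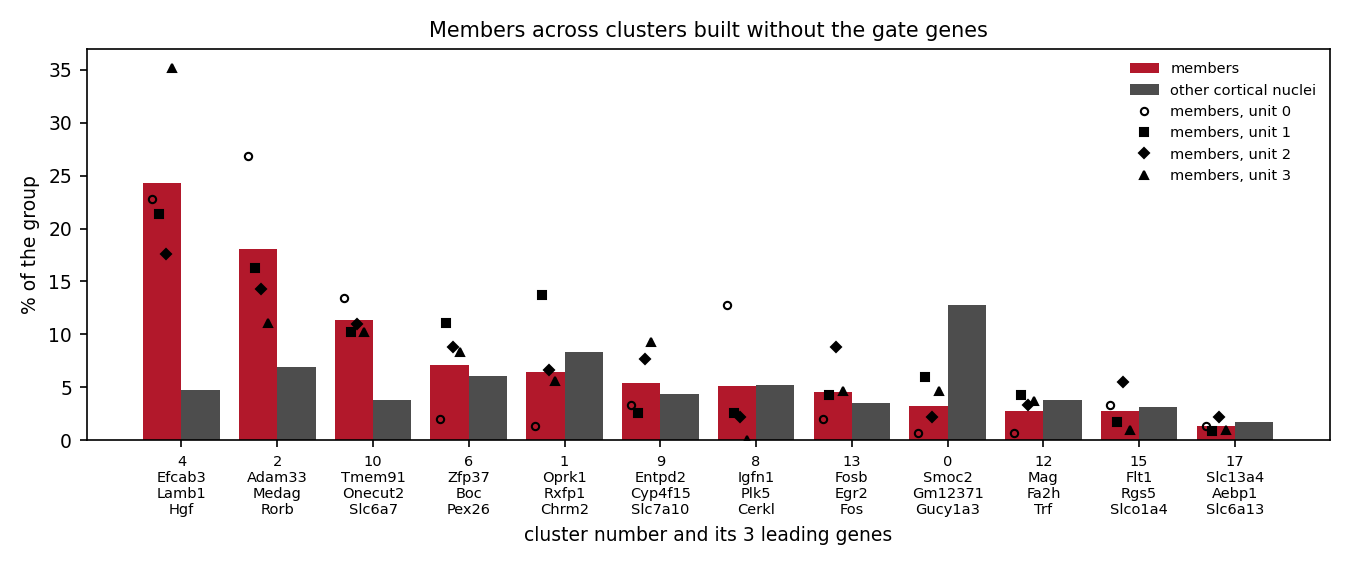
Share of members (red) and of all other cortical nuclei (grey) in the 12 finer clusters that hold most members, with each cluster's number and 3 leading genes under it. Bars are pooled over units and black symbols give the members' share in each unit. Cluster 4 holds 24.3% and cluster 2 holds 18.1% of members, and cluster 0 holds 3.23% of members and 12.8% of the others. Cluster 0 has 240 CPM of Otof, against 54.6 in the rest of the cortex, and nuclei with Otof were excluded from the members.

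Members were 30.1% of the nuclei of cluster 4 and 18.1% of those of cluster 2, so the levels of the gate genes in these clusters follow in part from membership. Over all 375 nuclei of cluster 4, Scn7a had 106, 110.4, 109.7 and 125 CPM in units 0 to 3, against 7.30, 43.5, 40.3 and 7.74 over the 465 nuclei of cluster 2. The rest of the cortex around cluster 4 had 12.1. BC006965 had 106, 67.9, 78.3 and 59.4 CPM in cluster 4 and 19.5, 34.8, 48.3 and 23.2 in cluster 2. Neither gene's values overlapped between these clusters. Herc6 averaged 172 CPM over units in cluster 4 and 113 in cluster 2, higher in 4 of 4 units with overlap. Scube1 averaged 243 CPM in cluster 4 and 241 in cluster 2, against a pooled level of 112 in the cortex outside cluster 4. The clusters were chosen here for holding most members, so these values carry no test and no gene is assigned to either cluster from them.

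**Figure D4:**
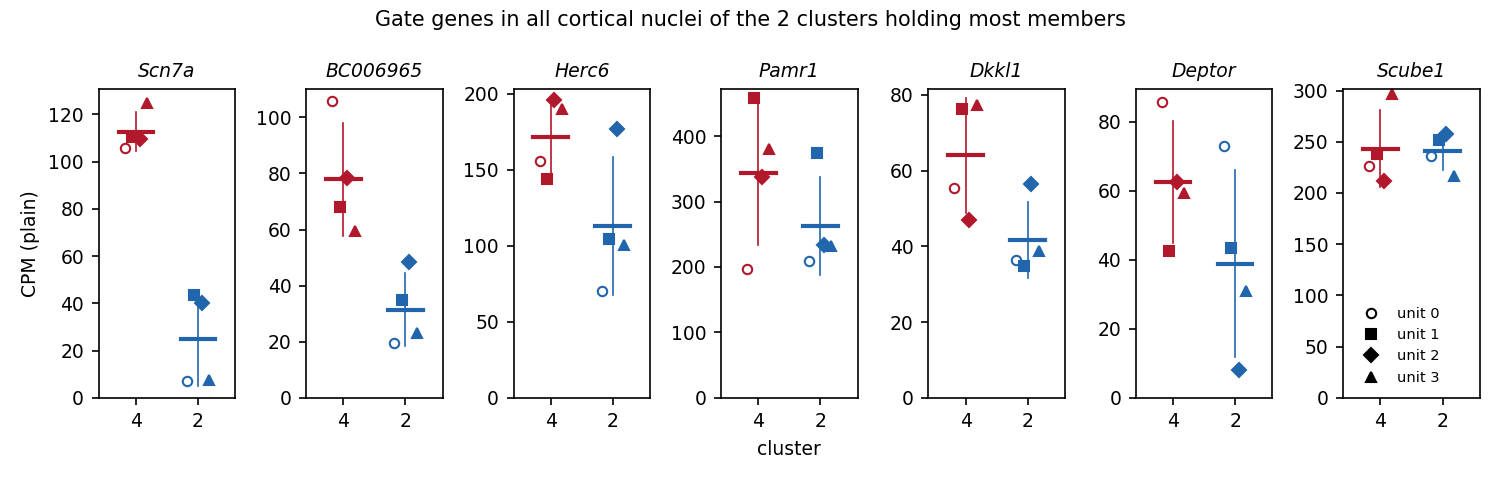
CPM (y axes from 0) of the 7 positive gate genes over all cortical nuclei of finer clusters 4 (red) and 2 (blue). Symbols are units, bars the mean and vertical lines 1 SD of 4 units. Scn7a and BC006965 are higher in cluster 4 without overlap, and Scube1 averages 243 in cluster 4 and 241 in cluster 2, where members are 30.1% and 18.1% of the nuclei.

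Members were next compared with all other cortical nuclei over all genes. Of 11393 genes tested with edgeR's quasi-likelihood test, 89 (0.781%) were higher in members and 62 (0.544%) lower at an adjusted p under 0.05, gate genes left out. At an unadjusted p under 0.05 there were 554 higher and 493 lower. All units of the members lay above all units of the other nuclei for 268 genes (2.35%) and below them for 319 (2.8%). Col15a1, a basement membrane collagen, Hgf, the ligand of the Met receptor, Wnt9a, a Wnt ligand, and Kcnh5, a voltage-gated potassium channel, were among the higher genes. Without nuclei that hold 2 or more glial or vascular UMIs, which left 141 members and 2381 others, 14 genes were higher and 9 lower. Of the 149 members of unit 0, 10 were left in this alternative. With other nuclei matched to members on depth, 72 were higher and 50 lower, and without the clusters led by non-neuronal markers 94 were higher and 72 lower.

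Col15a1 had 51.2, 30.8, 20.4 and 38.4 CPM in the members of units 0 to 3 and 13.6, 5.50, 9.14 and 9.60 in the other nuclei. Its log2 fold change of 1.93 ± 0.34 was the largest among named higher genes (edgeR, adjusted p = 1.57e-04), with no overlap, and it was called without nuclei of the non-neuronal clusters too (1.96). Without unit 0 its adjusted p was 0.144. Kcnh5 had 63.2, 46.2, 56.1 and 91.3 CPM in members, against 26.2, 19.7, 20.6 and 20.1 in the others. Its log2 fold change was 1.54 ± 0.25 (edgeR, adjusted p = 1.79e-05), the smallest adjusted p among the higher genes named here. Hgf had 20.5, 35.9, 51.0 and 9.61 CPM in members and 7.06, 9.17, 12.3 and 8.68 in the others, overlapping, with a log2 fold change of 1.63 ± 0.39. Il1rapl2, a synaptic adhesion protein, had 33.6 to 41.1 CPM in members and 10.1 to 16.5 in the others, a narrow range on both sides (log2 fold change 1.53 ± 0.32). Adcy7, an adenylyl cyclase, Susd5, Tnnc1, a troponin C, Wnt9a and Cdk18, a cyclin-dependent kinase, had log2 fold changes between 1.27 and 1.88. Unit 0 holds about as many UMIs of members as the other units together, and most of these calls rested on it: without unit 0, 10 genes were higher and 13 lower, and of the named higher genes Kcnh5 still passed, while Adcy7 fell under the filter on low counts and was not tested. Without unit 3 there were 28 higher and 22 lower, without unit 1 there were 59 higher and 45 lower, and without unit 2 there were 122 higher and 130 lower. Kcnh5 passed in each of these fits, while Adcy7 lost its call without unit 3. Hgf lost its call also without unit 1 or 2, Wnt9a without unit 1 or 3, and Susd5 and Cdk18 without unit 3. All kept their direction.

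Among the lower genes of the naming rule, Adarb2, Dlx6os1, Dlx1, Vip, Slc32a1 and Sst are genes of inhibitory neurons. Their log2 fold changes ran from -1.96 to -3.197, and nuclei with Gad1 or Gad2 had been excluded from the members by rule. Others were Plk5, a polo-like kinase, Pcdh8, a protocadherin, and Grik1, a kainate receptor subunit. The part of the exclusion in these genes was not tested. Plk5 had 11.95, 15.4, 15.3 and 9.61 CPM in members and 69.1, 53.6, 50.7 and 67.6 in the other nuclei. No unit overlapped, at a log2 fold change of -2.26 ± 0.31 (edgeR, adjusted p = 4.72e-07). Pcdh8 was at 0 in the members of unit 3 and rested on 5 UMIs in members, and its call was lost without any 1 unit. Plk5 passed without any 1 of the units.

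The gene lists, chosen with earlier results of these data known, were read against the 0.781% of all genes that were higher and the 0.544% that were lower. Of 7 tested genes of the layer 4 list, 4 were higher (Rorb, Kcnh5, Il1rapl2 and Plcxd2) and none lower. The median log2 fold change was 0.91, against 0.000 over all genes. Plcxd2 was also among the leading genes of cluster 14, which held no members. Of 14 layer 2/3 genes, 3 were lower (Rasgrf2, Calb1 and Cdh13) and none higher, with a median of -0.29. Of 10 layer 5 intratelencephalic genes, 2 were higher, Etv1 and S100b, and none lower. S100b, which astrocytes also express, had 78.6, 61.6, 86.8 and 86.5 CPM in members and 30.6 to 39.2 in the others. Of 11 subcerebral genes only Bcl11b changed, downward. None of the tested genes of layer 6 corticothalamic (7), layer 6 intratelencephalic and claustral (6), layer 6b (2) or near-projecting neurons (4) passed. Nor did any of the astrocyte (10), oligodendrocyte (8), precursor (5), microglia (4), endothelial (8) or fibroblast and mural (7) markers tested.

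Of 26 potassium channel genes tested, 5 were higher (Kcnh5, Kcnk2, Kcnq3, Kcnt2 and Kcnma1) and 3 lower (Kcna1, Kcnc1 and Kcnn2). Kcnk2, a background potassium channel, had 44.4, 87.3, 51.0 and 57.7 CPM in members, against 24.9, 32.6, 30.2 and 32.0 in the others, without overlap (log2 fold change 1.00 ± 0.24), and lost its call without unit 0, 1 or 3. Kcnc1 and Kcna1, channels known from fast-firing neurons, fell by 0.83 and 0.61 on the log2 scale. Nuclei with Gad1 or Gad2 had been excluded from the members only, and the part of this in the channel values was not tested. Of 21 cadherins, Cdh10 and Pcdh15 were higher and Cdh7, Cdh13, Pcdh8 and Pcdh17 lower. Scn9a, a voltage-gated sodium channel, was higher (log2 fold change 1.21 ± 0.32), as was the AMPA receptor subunit Gria4 (0.38 ± 0.10). Crhr1, the receptor of corticotropin-releasing hormone, was higher by 0.89 ± 0.21. Of 27 axon guidance genes, 2 were higher, the Eph receptor Epha4 and the semaphorin receptor Plxnd1. Of 16 immediate early genes, Nr4a1 was higher (log2 fold change 0.46 ± 0.12), and none of the GABA-A receptor subunits, metabotropic glutamate receptors or monoamine and acetylcholine receptors passed. Against the other excitatory nuclei alone, which are described next, none of the potassium channels (24 tested), cadherins (15), listed axon guidance genes (18) or layer 4 genes (5) passed, and of 10 layer 2/3 genes only Rasgrf2 did.

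**Figure D5:**
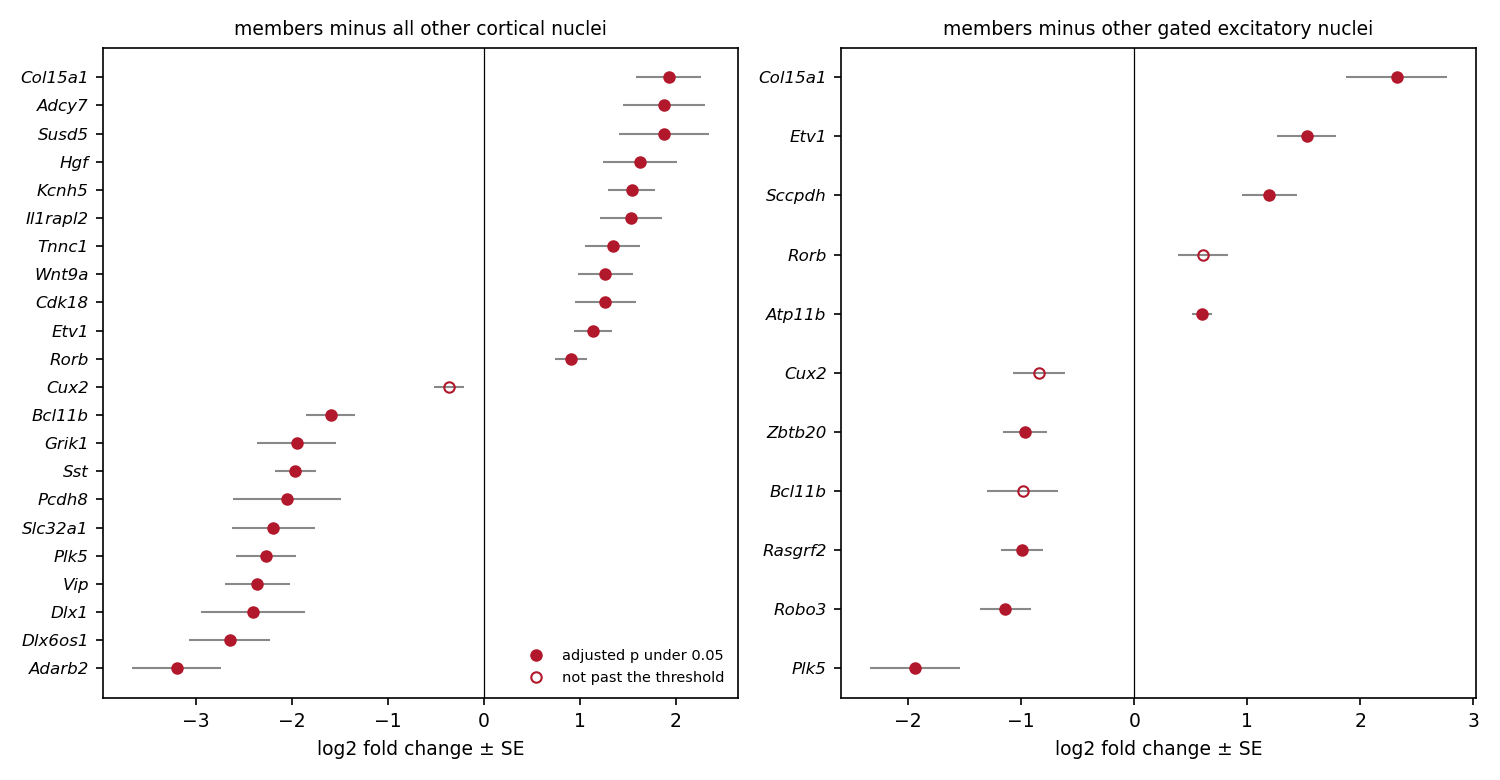
Log2 fold changes with their SE from edgeR for named genes, members minus all other cortical nuclei (left) and members minus other gated excitatory nuclei (right). Filled points have an adjusted p under 0.05. Col15a1 and Etv1 lie right of 0 and Plk5 left of 0 in both panels.

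In the next comparison both sides had to carry an excitatory marker gene and pass the same exclusions. The 277 members with at least 1 of the 3 excitatory marker genes were set against 1263 nuclei that had at least 1 of these genes, passed the same exclusions and were no members. The sides still differed: a nucleus had a median of 2417 UMIs in members and 1335 in the others, and Slc17a7 had 370.0 CPM in members and 559 in the others. Thinned to 800 UMIs, Slc17a7 was found in 34.0% ± 3.802 of these members and 46.3% ± 6.12 of the others (SD, n = 4 units). The part of the Slc17a7 difference in the result was not tested, and depth could be matched only in part. Of 7847 genes tested by edgeR, 5 (0.0637%) were higher in members and 4 (0.051%) lower, with 245 higher and 202 lower at an unadjusted p under 0.05. All units of the members lay above those of the other excitatory nuclei for 119 genes (1.52%) and below them for 113 (1.44%). Both sides share libraries with the preceding comparison, and all 277 members were part of it.

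The higher genes were Etv1, Col15a1, Sccpdh, Atp11b and the noncoding A830036E02Rik, which falls outside the naming rule and is named after its value was seen. Etv1 had 74.7, 137, 96.3 and 124 CPM in members, against 23.2, 35.2, 45.5 and 50.2 in the other excitatory nuclei. The ranges did not overlap, and the log2 fold change was 1.52 ± 0.26 (edgeR, adjusted p = 0.0054). Col15a1 had 54.0, 48.8, 26.3 and 36.5 CPM in members and 4.79 to 11.6 in the others, a log2 fold change of 2.32 ± 0.44 (adjusted p = 0.0178 by edgeR). Sccpdh, an enzyme related to saccharopine dehydrogenase, had 91.4 to 146 CPM in members and 32.5 to 68.4 in the others (log2 fold change 1.19 ± 0.24). Atp11b, a phospholipid flippase, was abundant and higher by only 0.60 ± 0.09, with 675, 1201, 1261 and 1381 CPM in members and 460, 839, 828 and 864 in the others.

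The lower genes were Plk5, Robo3, Rasgrf2 and Zbtb20. Plk5 had 12.5, 19.5, 26.3 and 7.30 CPM in members, against 58.0, 55.9, 41.0 and 74.2 in the other excitatory nuclei, and was lower by -1.94 ± 0.40 on the log2 scale (edgeR, adjusted p = 0.0311). Rasgrf2, an exchange factor known from upper-layer neurons, had 131, 58.6, 78.8 and 87.7 in members and 272, 137, 157 and 146 in the others. Its values did not overlap, and its log2 fold change was -0.99 ± 0.19. Robo3, an axon guidance receptor, and Zbtb20, a zinc finger transcription factor, had log2 fold changes of -1.14 and -0.97 (edgeR, adjusted p = 0.027 and 0.0311). The other layer genes missed the threshold, with log2 fold changes of 0.61 ± 0.22 for Rorb (edgeR, adjusted p = 0.652), -0.85 ± 0.23 for Cux2 (0.299) and -0.99 ± 0.32 for Bcl11b (0.586). Without the clusters led by non-neuronal markers Bcl11b passed (-2.15, adjusted p = 0.0053). These calls were few and depended on single units: without unit 3 no gene passed in either direction, without unit 0 there were 2 higher genes, without unit 1 there was 1 in each direction, and without unit 2 there were 21 higher and 78 lower. The call for Etv1 was lost without unit 0 (adjusted p = 0.169), 1 (0.0797) or 3 (0.0824), at log2 fold changes of 1.40 to 1.59. Plk5, Rasgrf2, Robo3, Zbtb20 and Sccpdh likewise lost their calls without unit 0, 1 or 3, Col15a1 without unit 1 or 3 and Atp11b without unit 3, all keeping their direction. Col15a1 was below the filter on low counts without unit 0 and so was not tested there. Cux2 passed without unit 2 (-0.86, adjusted p = 0.0056).

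The members were last set against 3 groups chosen by the genes that the rule excluded, in 1 edgeR fit over 5503 genes. The Otof group (439 nuclei) stands for upper-layer neurons, the Fezf2 group (316) for deep-layer neurons and the layer 6 group (72, chosen by at least 2 of Syt6, Rprm and Foxp2) for corticothalamic neurons. The 3 contrasts share the members. Members lacked the genes that chose each group, so lower levels of accompanying genes follow in part from the choice. Against the Otof group, 208 genes (3.78%) were higher and 184 (3.34%) lower in members. Against the Fezf2 group, 90 (1.64%) were higher and 72 (1.31%) lower, and against the layer 6 group 80 (1.45%) were higher and 52 (0.945%) lower. The units did not overlap, with members above, for 3.23% of genes against the Otof group, 2.2% against the Fezf2 group and 5.07% against the layer 6 group. With members below they did not overlap for 3.94%, 2.53% and 1.29%, in the same order. The layer 6 group held only 8, 10 and 18 nuclei in units 1 to 3, so its values are the least certain. Without unit 0 the counts were 78 higher and 81 lower against the Otof group, 29 and 38 against the Fezf2 group and 23 and 6 against the layer 6 group. Without unit 2, 58 genes were higher than in the Fezf2 group.

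Against the Otof group, the members, which lacked Otof by rule, were lower in upper-layer genes and higher in layer 5 intratelencephalic ones. Of 8 layer 2/3 genes tested, 7 were lower (Cux2, Cux1, Rasgrf2, Calb1, Lamp5, Enpp2 and Stard8) and none higher. Of 5 intratelencephalic genes, 4 were higher (Etv1, Tox, Sulf2 and S100b). Higher too were Pcp4 of 7 subcerebral, Garnl3 of 4 corticothalamic and Rxfp1 of 2 layer 6 intratelencephalic and claustral genes. Cux2 had 206 to 274 CPM in the Otof group, above every unit of the members, and was lower in members by -1.16 ± 0.19 on the log2 scale (edgeR, adjusted p = 6.31e-08). Etv1 had 66.4 to 125 CPM in members and 0 to 34.4 in the Otof group (log2 fold change 2.84 ± 0.40), and Rorb 92.4 to 154 in members and 21.04 to 55.0 in the Otof group (1.88 ± 0.30). Bcl11b did not separate them, at 17.1 to 30.6 CPM in members and 13.7 to 33.5 in the Otof group, and the sign of its log2 fold change (0.17) turned without non-neuronal clusters (-0.71). Among named genes, Sccpdh, Plcxd2 and Kcnk2 were higher in members by 2.43, 2.54 and 2.25 on the log2 scale. Plk5 was lower by -3.65, Adamts3, a metalloprotease, by -2.57, Gsg1l, an auxiliary subunit of AMPA receptors, by -2.16, Cdh7, a cadherin, by -1.67 and Rasgrf2 by -1.67. Of 10 immediate early genes, 5 were higher in members, among them Nr4a1 (log2 fold change 1.31 ± 0.20). Ly6c1, a surface protein of endothelial cells, was higher too (2.78), as were all 4 endothelial genes tested, and their part in the other results was not tested.

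Against the Fezf2 group, Bcl11b marked the difference, and members lacked Fezf2 by rule. It had 17.1 to 30.6 CPM in members, against 152, 209, 84.1 and 187 in the Fezf2 group, a log2 fold change of -2.70 ± 0.31 (edgeR, adjusted p = 5.75e-15). Of 7 subcerebral genes tested, 5 were lower in members (Bcl11b, Crym, Nefh, Nefm and Pcp4) and none higher. Of 8 layer 2/3 genes, 3 were higher (Calb1, Cux2 and Rasgrf2). Of 5 layer 5 intratelencephalic genes, 3 were lower (Parm1, Sulf2 and Tox) and none higher. Etv1 missed the threshold, with 66.4 to 125 CPM in members and 79.0 to 114 in the Fezf2 group, a log2 fold change of -0.08 ± 0.27 (edgeR, adjusted p = 0.962), and its sign turned without unit 2 (0.10). Rorb was higher in members by 0.92 ± 0.28 (edgeR, adjusted p = 0.0339) and Cux2 by 0.96 ± 0.27 (0.0173), and neither call was stable: Rorb lost it without any 1 of the 4 units, Cux2 without unit 0 or unit 2, and both with DESeq2. Cacna1h, a T-type calcium channel, was lower by -2.17, Ano4 by -2.15, Nrip3 by -1.99 and Parm1 by -1.84.

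The 5 named genes that were higher in members than in the Fezf2 group were Rgs5, a gene of pericytes, Itm2a, Kitl, the ligand of the Kit receptor, Slc2a1, the glucose transporter of brain endothelium, and Hbb-bs, a globin. Rgs5 had 307, 159, 944 and 38.4 CPM in the members of units 0 to 3, against 126, 5.97, 24.02 and 20.7 in the Fezf2 group. Rgs5 was highest in unit 2 and lowest in unit 3, as were the endothelial markers of the members. Without the clusters led by non-neuronal markers the number of higher genes was 52, and Kitl was no longer called (edgeR, adjusted p = 0.186). Of all genes followed in this contrast, 16 kept their side of the threshold, 6 lost the call and the rest were not tested there. In this alternative Bcl11b (log2 fold change -3.48) and Cux2 (0.97) kept their calls and Rorb (0.89, adjusted p = 0.0849) did not.

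Against the layer 6 group, all 4 corticothalamic genes tested were lower in members, which lacked Syt6, Rprm and Foxp2 by rule. Tle4 had 22.2, 35.9, 30.6 and 19.2 CPM in members and 142, 196, 107 and 73.1 in the layer 6 group, without overlap (log2 fold change -2.29 ± 0.47). Col5a1, Nfia and Garnl3 were the others. Bcl11b was lower by -2.63 ± 0.45 (edgeR, adjusted p = 1.24e-06), and Col12a1, a collagen, by -2.83 ± 0.45. Slc30a3 was higher in members by 2.21 ± 0.35. Coch, Kcnab1, a potassium channel subunit, and Fam19a1 rested on 1 UMI each in the layer 6 group and on 90, 77 and 74 UMIs in members, Ajap1 on 1 and 83, and Palmd on 2 and 128, so no fold change is given. Rorb (log2 fold change 1.41, adjusted p = 0.0958), Cux2 (1.40, 0.0823) and Etv1 (0.47, 0.809) missed edgeR's threshold against this small group.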

How the data were processed

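UMI counts per gene and nucleus were deposited by the authors as 1 table for all libraries. Per the submitters' processing notes STAR 2.4.0a24, Seurat and the mm10 build were used, with no role or order given. No filter is given in the sources used here, and the fewest UMIs in a used nucleus was 400. A further 1689 columns whose names match no label used here were left out. Gene positions come from GENCODE M21. Members were chosen as the report states, and the members and gene lists were chosen with earlier results of these data known.

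UMIs were summed per unit and group and tested by quasi-likelihood in edgeR 4.0.16 after TMM scaling and the filterByExpr filter, p-values being adjusted by Benjamini-Hochberg across the whole table, with the unit as a block, because both sums of a unit come from the same libraries and share their processing. An SE is left blank where p was above 0.98. Levels in plain CPM are UMIs scaled to a group's total per unit. Gate genes were left out of all counts of called genes. Named genes were the largest changes on the log2 scale in each direction, past the threshold and the same way in every unit, 10 against all other and other excitatory nuclei and 5 against each layer group, with at least 20 CPM on the higher side, leaving out Gm and Rik transcripts. Rorb, Cux2, Etv1 and Bcl11b were always named, with up to 4 genes of each list by smallest p. Other called list genes and genes that lead clusters were named after their values were seen. The layer 6 group was kept although 3 units held under the 20 nuclei planned per sum. Nuclei were clustered by Leiden (leidenalg 0.10.2) on 2000 variable genes and 30 principal components, with 20 neighbours. No doublets were removed from the main values. The doublet score was computed from 30 neighbours, and scores at or above the limit of the top 5% of a library counted as high, ties included, which took in 53 members (11.4%) and 363 other nuclei (6.60%). Intervals are exact (Clopper-Pearson) and cover counting error only. DESeq2 1.42.0 was an alternative. Scripts were tested on simulated data. Some genes that the naming rule selects are not reported here.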

Additional observations from a re-analysis of the deposited data

Results flagged for a closer look

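In 19 of 136 groups of 4 units, 1 unit stood apart from the other 3 by more than Dixon's 95% limit. About 1 in 20 groups of independent, normally distributed values would exceed it. The groups here share genes and units, and a single value above values of 0 always exceeds it. The count therefore cannot be set against that rate. No cause was tested. Unit 0, the deepest, was the one standing apart in most of them.

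Among members, Cdk18 was 57.7 CPM in unit 3 and 30.6 to 34.2 in the other units, Pcdh8 was 0 in unit 3 and 5.10 to 5.14 in the others, Nrip3 was 96.1 in unit 3 and 30.8 to 40.8 in the others, and Kitl was 255 in unit 2 and 70.02 to 82.2 in the others. Among members with an excitatory marker, Robo3 was 122.5 in unit 0 and 36.5 to 43.8 in the others. The share of members was 10.9% in unit 0 and 6.60% to 7.20% in the others.

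Among all other cortical nuclei, unit 0 had 26.2 CPM of Kcnh5, against 19.7 to 20.6, and 16.7 of Tnnc1, against 20.1 to 20.6. Among other excitatory nuclei, unit 0 had 459.7 of Atp11b, against 828 to 864, and 272 of Rasgrf2, against 137 to 157. In the Fezf2 group, unit 0 had 126 of Rgs5, against 5.97 to 24.02, 91.6 of Itm2a, against 0 to 12.01, and 123.2 of Nrip3, against 210.2 to 228, while unit 1 had 53.7 of Kitl, against 19.0 to 24.02. In the layer 6 group, unit 0 had 7.50 CPM each of Coch, Kcnab1 and Fam19a1 and 14.99 of Palmd, and unit 1 had 65.3 of Ajap1, with 0 in the other units, which rest on 1 or 2 UMIs.

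In the hippocampus, which the comparisons did not use, 62 of 2374 nuclei of unit 0 (2.61%) passed the gene thresholds.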

How the results depend on the processing

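Counts of called genes depended on the test and on single units. Against all other cortical nuclei (89 higher, 62 lower), DESeq2 gave 31 and 14, and no filter on low counts gave 57 higher. The fit without the replicate block gave 12 and 13, nuclei of at least 1000 UMIs 57 and 33, the stricter gate of 3 UMIs 137 and 193, and nuclei under 2 glial or vascular UMIs 14 and 9. This last setting, called no glial UMIs below, dropped nuclei with 2 or more such UMIs and left 10 of the 149 members of unit 0. It left 1, 2, 5 and 9 nuclei of the layer 6 group in units 0 to 3. The part of these smaller groups in its values was not tested. Leaving out 1 unit gave 10 to 122 and 13 to 130. Against other excitatory nuclei (5 and 4), DESeq2 gave 1 and 0, no filter 8 and 18, no replicate block 1 and 0, the stricter gate 17 and 65, no high doublet scores 26 and 58, no glial UMIs 1 and 0, no non-neuronal clusters 11 and 11, and depth-matched nuclei 10 lower, at a median of 2417 UMIs in members and 2058.5 in the matched nuclei, so the match was partial. Leaving out 1 unit gave 0 to 21 and 0 to 78. Against the Otof group (208 and 184), DESeq2 gave 95 and 100, no replicate block 66 and 55, no glial UMIs 16 and 20, and leaving out 1 unit 78 to 190 and 81 to 144. Against the Fezf2 group (90 and 72), DESeq2 gave 20 and 36, no replicate block 12 and 15, the stricter gate 43 higher, no high doublet scores 58 higher, no glial UMIs 9 and 8, no non-neuronal clusters 52 higher, and leaving out 1 unit 29 to 71 and 38 to 63. Against the layer 6 group (80 and 52), DESeq2 gave 24 higher, no filter 26 lower, no replicate block 26 and 20, no glial UMIs 16 and 3, and leaving out 1 unit 23 to 63 and 6 to 47. The cause of these moves was not tested. Depth-matched nuclei, non-neuronal clusters and the wider layer 6 group (Syt6 or Rprm) were chosen after seeing the data.

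The log2 fold changes of the genes left out of the gate in turn, a description with no test, were 1.73 for Scn7a, 1.14 for Pamr1, 1.43 for BC006965, 0.70 for Herc6 and 1.02 for Deptor without the replicate block. Leaving out 1 unit gave 1.42 to 1.55 for BC006965, 0.83 to 1.11 for Dkkl1, 0.56 to 0.87 for Herc6 and 0.76 to 1.04 for Deptor. The share of members was 3.51% after thinning and 4.79% with the stricter gate, and the cluster that held most members held 24.3% at the finer resolution. Of the log2 fold changes of single genes, 1343 kept their side of the threshold, 415 lost the call, 8 gained it and 7 changed sign. Bcl11b against the Otof group was -0.0062 without high doublet scores and -0.71 without non-neuronal clusters. It was -3.41 without nuclei of 2 or more glial or vascular UMIs, where 141 members were left, 10 of them in unit 0. Etv1 against the Fezf2 group ran from -0.22 to 0.10 with 1 unit left out, the positive value coming without unit 2, and was 0.13 in nuclei of at least 1000 UMIs. Against the layer 6 group, Gria3 was 0.078 without nuclei of 2 or more glial or vascular UMIs, which left 17 nuclei in that group. Rgs5 was -0.10 with the wider layer 6 group. Since 184 members rest on 2 UMIs, depth limits both membership and the layer genes seen in each nucleus.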
